A study of Bos taurus with 9 samples.

Results

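In rumen tissue of cattle, 1883 regions of the genome carried acetylated lysine 27 of histone H3 (H3K27ac) both in control and after 24 h of butyrate, but carried acetylated lysine 9 of the same histone (H3K9ac) in control only. They were chosen by the presence and absence of peaks. All overlapping H3K9ac and H3K27ac peaks of both conditions on chromosomes 1 to 29 were merged at 1 bp or more of overlap, and a merged region was kept when it held a control H3K9ac peak, a control H3K27ac peak and a butyrate H3K27ac peak and no butyrate H3K9ac peak. The 1883 control-only H3K9ac regions made up 4.01% of 46982 merged regions and 8.91% of the 21132 regions with H3K27ac in both conditions, which are called steady below.

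Acetylation of histone H3 marks active promoters and enhancers. Acetyl groups are added by acetyltransferases such as CBP and GCN5 and removed by histone deacetylases, and butyrate, a short-chain fatty acid made by rumen microbes and taken up by the rumen wall, inhibits these deacetylases. H3K27ac is found at active enhancers and promoters alike, whereas H3K9ac is known mostly from active promoters. RNA polymerase II (RNA pol II) marks sites of transcription, and trimethylation of lysine 9 of H3 (H3K9me3), on the residue that H3K9ac occupies in acetylated form, marks heterochromatin and silenced repeats.

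The peaks come from chromatin immunoprecipitation with sequencing (ChIP-seq) of rumen, labelled with the breed as Hostein, taken before (control) and after a 24-h butyrate treatment, given by infusion according to the methods of the study. There was 1 library for each of 4 antibodies in each condition, and all shared 1 input library. The ages and the number of animals are not given in the sources used here. With 1 library a group there is no spread between replicates, so no test between conditions was run, and each interval given is a Wilson 95% interval of a share and covers counting error only. Both control acetylation libraries were run on lane 1 and both butyrate acetylation libraries on lane 3, so lane and condition cannot be told apart for H3K9ac and H3K27ac, nor for H3K9me3, whose libraries were on lanes 3 and 4. RNA pol II had both libraries on lane 3. Tissue is a mixture of cell types, in which fewer cells with a mark and less of the mark per cell cannot be told apart. A missing peak says that enrichment did not reach the threshold of the peak caller, which depends on depth, and is not a measurement of no acetylation. Gene positions of the assembly of the peaks, UMD3.1.1, were not used here, so regions are given by position and the tissue label was not checked against marker genes.

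In the mapping summary of the study the butyrate H3K9ac and RNA pol II libraries had fewer kept reads than their controls and the butyrate H3K27ac library had more, and the part of depth in the results was not tested.

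The first question was how often steady H3K27ac went with a change in H3K9ac calls, and in which direction. Of the 3192 steady regions with a control H3K9ac peak, the 1883 without a butyrate H3K9ac peak made up 59.0% (57.3 to 60.7). Over all merged regions with control H3K9ac, steady or not, the share was higher, at 65.0% (63.5 to 66.5) of 3944. The mirror pattern was about as frequent. There were 1924 steady regions with a butyrate H3K9ac peak and no control one, 59.5% (57.8 to 61.2) of the 3233 steady regions with butyrate H3K9ac, against 66.4% (64.9 to 67.8) of all 4105. A further 1309 steady regions had H3K9ac in both conditions and 16016 had none. Control-only and butyrate-only H3K9ac were thus nearly balanced over steady H3K27ac, with 49.5% (47.9 to 51.0) of the 3807 regions of either kind being control-only. These counts follow from the rule and are a description.

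**Figure D1:**
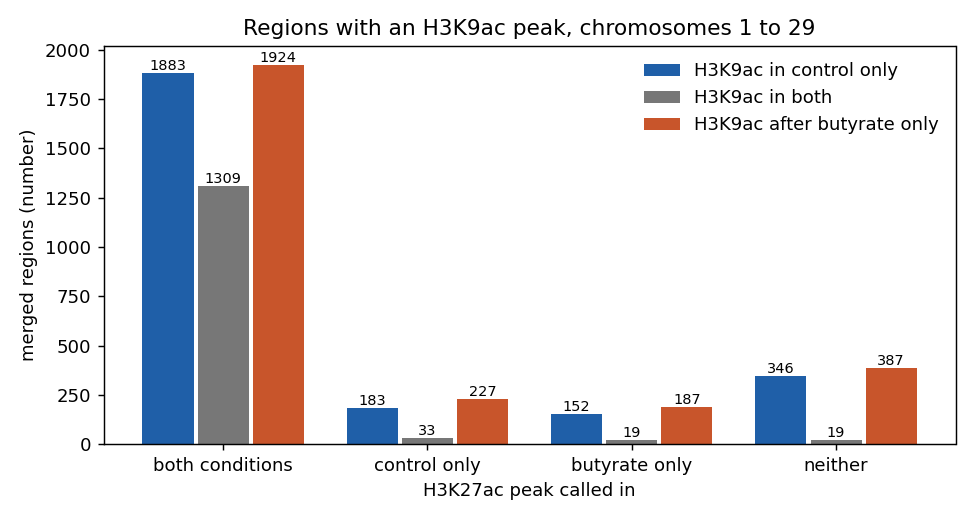
Number of merged regions on chromosomes 1 to 29 with an H3K9ac peak in control only, in both conditions or after butyrate only (bars), by the condition in which an H3K27ac peak was called (horizontal axis). Over H3K27ac called in both conditions, 1883 control-only regions stand beside 1924 butyrate-only ones.

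Most regions that had H3K9ac in control alone lay over H3K27ac of both conditions. Of 2564 merged regions with control-only H3K9ac, 73.4% (71.7 to 75.1) were the steady ones described here, 183 had H3K27ac in control only, 152 after butyrate only and 346 in neither condition. For butyrate-only H3K9ac the steady share was 70.6% (68.9 to 72.3) of 2725 regions. Over all 6669 regions with H3K9ac in either condition it was 76.7% (75.7 to 77.7), and with H3K9ac in both conditions 94.9% (93.6 to 95.9) of 1380. H3K9ac calls of a single condition thus lay over steady H3K27ac less often than shared ones, as a description and without a test.

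The 1883 regions were short, with a median width of 570 bp, quartiles of 430 and 772 bp and a range from 204 to 2659 bp. Together they spanned 1.21 Mb. The simplest make-up, 1 control H3K9ac peak with 1 H3K27ac peak of each condition, accounted for 1598 regions (84.9%). More than 1 control H3K9ac peak was found in 38 regions, more than 1 control H3K27ac peak in 142 and more than 1 butyrate H3K27ac peak in 153. In all, the regions held 1921 of the 4075 control H3K9ac peaks of these chromosomes (47.1%), 2034 of 36963 control H3K27ac peaks (5.50%) and 2042 of 32763 butyrate H3K27ac peaks (6.23%).

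The control H3K9ac peaks that chose the regions were narrow. Their median width was 243 bp, with quartiles of 212 and 300 bp, where 200 bp is the minimum width in every list. At this minimum were 227 of the 1921 peaks (11.8%), and 27 peaks (1.41%) were wider than 500 bp. Control H3K9ac peaks in steady regions that also had a butyrate H3K9ac peak were wider, with a median of 272 bp, 6.78% at the minimum and 6.28% wider than 500 bp. Butyrate H3K9ac peaks in the mirror regions had the same median as the control-only ones, 243 bp, with 13.2% at the minimum and 1.68% wider than 500 bp. Peaks called in a single condition were thus the narrower ones on both sides. Widths entered the calls, so these values are given without a test.

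The widest control H3K9ac peaks among the regions show that wide peaks were also without a butyrate counterpart. The widest, 688 bp, lay on chromosome 11 from 10096739 to 10097426, inside a region from 10096607 to 10097460 with 854 bp under H3K27ac in control and 792 bp after butyrate, and the nearest butyrate H3K9ac peak was 73697 bp away. The next was 666 bp wide on chromosome 8, 60236863 to 60237528, with 706 bp of H3K27ac in control and 582 bp after butyrate. A peak of 638 bp on chromosome 18, 48879446 to 48880083, lay within H3K27ac of 1150 bp in control and 1120 bp after butyrate. At these 3 regions H3K27ac was called in both conditions and covered fewer base pairs after butyrate, and none of them had an RNA pol II or H3K9me3 peak. A peak of 637 bp on chromosome 5, 117225350 to 117225986, had a butyrate H3K9ac peak only 219 bp beyond the region, and its H3K27ac went from 872 bp in 2 peaks to 1267 bp in 1 peak. The fifth, 626 bp on chromosome 9, is described with RNA pol II.

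The widest regions each held several H3K27ac peaks in at least 1 condition. On chromosome 3, 14586923 to 14589581 (2659 bp), 2 control H3K27ac peaks covered 2583 bp and 3 butyrate peaks 2360 bp, with 496 bp under 2 control H3K9ac peaks. On chromosome 7, 48072857 to 48075453 (2597 bp), H3K27ac covered 2229 bp in control and 2164 bp after butyrate, with 403 bp of control H3K9ac. The next widest were on chromosome 5, 117141017 to 117143594 (2578 bp), chromosome 18, 52914870 to 52917324 (2455 bp), and chromosome 5, 61005850 to 61008300 (2451 bp). Their H3K27ac covered 2301, 1856 and 2341 bp in control and 2111, 2455 and 2306 bp after butyrate. Of these 5 widest regions, 4 had an RNA pol II peak after butyrate and none had one in control. The exception was the chromosome 5 region that starts at 117141017. Among all 106 control-only regions wider than 1200 bp, 7 had a butyrate RNA pol II peak (6.60%), against 5.72% of all merged regions of that width.

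At the edge of the rule, the regions closest to a butyrate H3K9ac peak without touching one lay on chromosome 26, 16995516 to 16996094, at 38 bp, chromosome 5, 103858642 to 103859569, at 60 bp, and chromosome 18, 62459861 to 62460339, at 66 bp. Just outside the rule, the butyrate H3K9ac peak shared only 64 bp with the other peaks of a region on chromosome 16, 49331053 to 49331872, 75 bp on chromosome 26, 30742593 to 30743263, and 94 bp on chromosome 11, 100004877 to 100005534. Such near cases were the minority. A butyrate H3K9ac peak lay within 500 bp of 135 of the 1883 regions (7.17%), within 1 kb of 204 (10.8%) and within 10 kb of 515 (27.4%), and the median distance was 47.2 kb. For the mirror regions the shares with a control H3K9ac peak at these distances were 6.03%, 9.62% and 26.2%, and the median was 53.4 kb.

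The H3K27ac peak of either condition covered the control H3K9ac peak about equally. Among the 1598 regions of the simplest make-up, the whole control H3K9ac peak lay inside the control H3K27ac peak in 68.4% (66.1 to 70.6) and inside the butyrate H3K27ac peak in 69.5% (67.2 to 71.7). The median distance between the centres was 59.5 bp to the control and 56.8 bp to the butyrate H3K27ac peak. The width of an H3K9ac peak inside a wider H3K27ac peak limits how far apart these centres can lie. In 16 regions the H3K9ac peak did not touch the control H3K27ac peak itself, and in 17 it did not touch the butyrate one, the region being joined by the remaining peak. The centres of the H3K27ac peaks of the conditions lay a median of 43.5 bp apart, and their shared part made up a median of 75.2% of their joint span. In the mirror regions this layout was nearly the same, with the butyrate H3K9ac peak wholly inside the control H3K27ac peak in 69.9% and inside the butyrate one in 69.7% of 1640 regions.

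**Figure D2:**
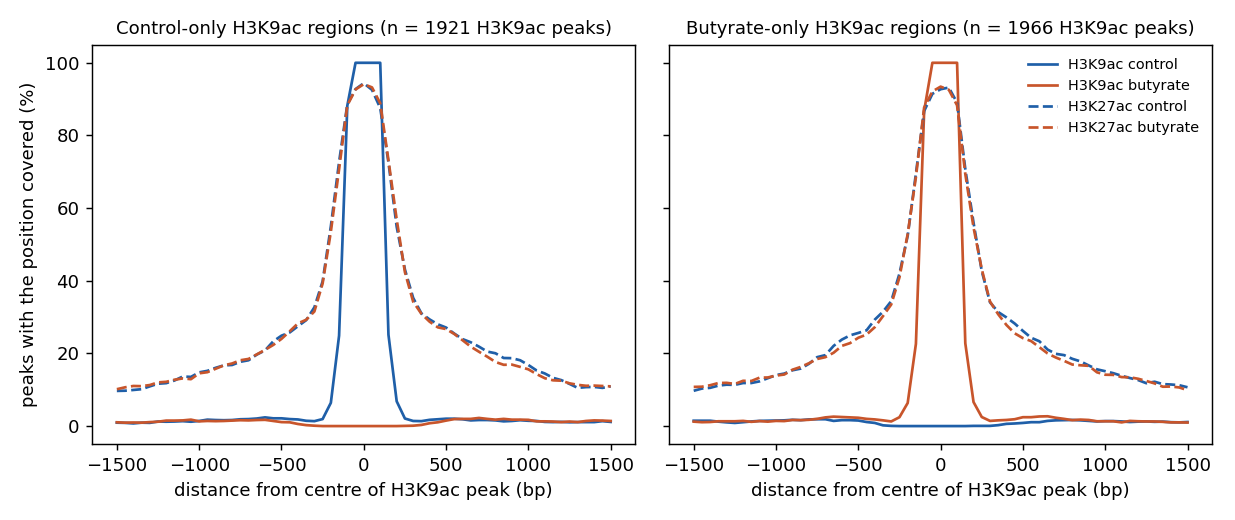
Share of H3K9ac peaks (vertical axis, %) at which a position was covered by a peak of each list, by distance from the centre of the H3K9ac peak (horizontal axis, bp), for the 1921 control H3K9ac peaks of the control-only regions (left) and the 1966 butyrate H3K9ac peaks of the butyrate-only regions (right). Control and butyrate H3K27ac run together in both panels, at 94.4% and 94.1% at the centre in the left panel.

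Around the centres of the 1921 control H3K9ac peaks, H3K27ac coverage was 94.4% in control and 94.1% after butyrate. At 500 bp to either side it was 24.9% and 27.1% in control and 24.0% and 26.7% after butyrate, and at 1500 bp it was 9.68% and 10.9% in control and 10.2% and 10.9% after butyrate. The plotted profile shows no position at which the H3K27ac lists part clearly. H3K27ac was required in both conditions by the rule, so the height at the centre is set by it, while the breadth is not.

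The second question was whether H3K27ac changed in extent where H3K9ac was called in control only. It was measured as the base pairs under H3K27ac peaks inside each region. The median was 478 bp in control and 466 bp after butyrate, and the sums were 1020 and 1013 kb. The median log2 ratio of butyrate to control was -0.01, with quartiles of -0.28 and 0.26. H3K27ac covered less after butyrate in 960 regions (51.0%, 48.7 to 53.2), more in 891 and the same in 32, against a background of 51.3% with less over all steady regions. A width at least 1.5 times lower was seen in 213 regions (11.3%, 9.96 to 12.8, background 13.2%). One at least 1.5 times higher was seen in 195 (10.4%, 9.06 to 11.8, background 11.2%). The interval of the lower share lay below its background, and that of the higher share held its background. Width was not matched here, and the control H3K27ac median over all steady regions was 376 bp, against 478 bp.

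The mirror regions gave close values, with a median log2 ratio of -0.01 and less H3K27ac width in 50.6% (48.3 to 52.8). Regions with H3K9ac in both conditions had a median of -0.01 and 51.0% with less, and those without H3K9ac -0.02 and 51.5%. The median H3K27ac width ratio was thus nearly the same whichever way the H3K9ac call went. The wider spread of the single-condition classes against the regions with H3K9ac in both, where 7.87% were at least 1.5 times lower and 6.11% at least 1.5 times higher, went with narrower H3K27ac, whose control median was 478 bp against 625 bp. The number of H3K27ac peaks in a control-only region was higher in control at 115 regions, higher after butyrate at 125 and equal at 1643.

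**Figure D3:**
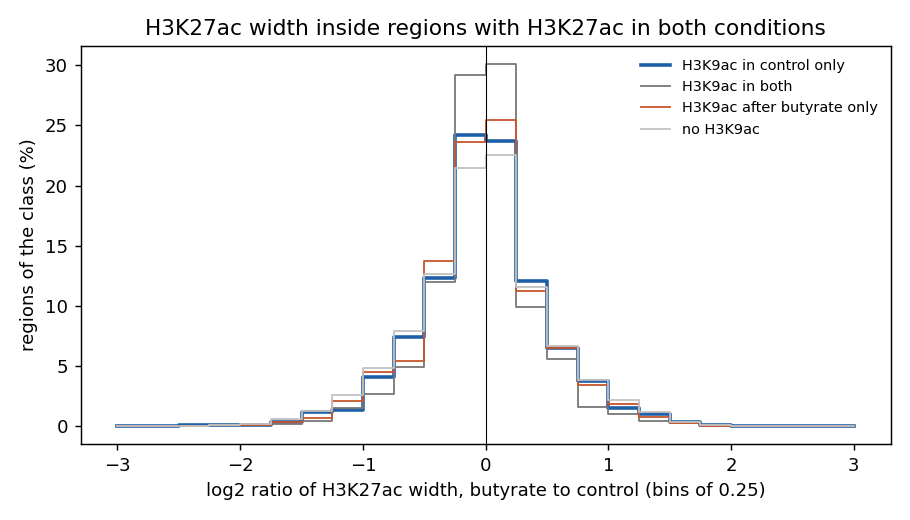
Distribution of the log2 ratio of H3K27ac width inside regions, butyrate to control (horizontal axis, bins of 0.25), as a share of the regions of each H3K9ac class (vertical axis, %). The control-only and butyrate-only classes lie over each other, centred at a median of -0.01 for each.

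Individual regions did differ in H3K27ac width. The largest gain was on chromosome 14, 14025592 to 14026343, from 200 bp in control to 752 bp after butyrate (log2 ratio 1.91). Next came chromosome 11, 46216964 to 46217704, from 227 to 741 bp (1.71), and chromosome 16, 1608930 to 1609761, from 273 to 832 bp (1.61). These 3 regions had broader H3K27ac after butyrate although their H3K9ac peak was called in control only. The largest loss was on chromosome 5, 32719294 to 32720345, from 1052 to 200 bp (log2 ratio -2.40), followed by chromosome 8, 51435131 to 51436064, from 934 to 200 bp (-2.22), and chromosome 23, 49751638 to 49752350, from 713 to 206 bp (-1.79). At the chromosome 5 and chromosome 8 regions of this set the butyrate H3K27ac peak was at the minimum width. None of these 6 regions had an RNA pol II or H3K9me3 peak.

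RNA pol II was not used in the choice of regions. It was called in 29 of the 1883 control-only regions in control (1.54%, 1.07 to 2.20) and in 66 after butyrate (3.51%, 2.76 to 4.43). Over all merged regions the shares were 0.602% in control and 1.03% after butyrate, and over steady regions 0.975% and 1.73%. Without regard to width, the control-only regions thus carried RNA pol II more often than either background in both conditions. They did so less often than regions with H3K9ac in both conditions, where the shares were 4.35% (3.38 to 5.60) and 6.65% (5.42 to 8.13), and more often than steady regions without H3K9ac, with 0.593% (0.486 to 0.725) and 0.993% (0.851 to 1.16). Before regions of like width were compared, none of these intervals of the control-only regions overlapped those of either class in the same condition. The classes differ in width, and the differences between them were not tested.

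After butyrate, RNA pol II was thus found at 2.28 times as many control-only H3K9ac regions as in control, although H3K9ac was not called there after butyrate. The mirror regions, where H3K9ac was called after butyrate only, had 25 with RNA pol II in control (1.30%, 0.882 to 1.91) and 53 after butyrate (2.75%, 2.11 to 3.59), a ratio of 2.12. The ratio was 1.53 with H3K9ac in both conditions, 1.67 without H3K9ac and 1.71 over all merged regions. The RNA pol II list itself had 673 control and 1242 butyrate peaks on these chromosomes, a ratio of 1.85. More RNA pol II peaks after butyrate were therefore seen whichever way the H3K9ac call went, and the control-only and butyrate-only intervals overlapped in each condition.

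**Figure D4:**
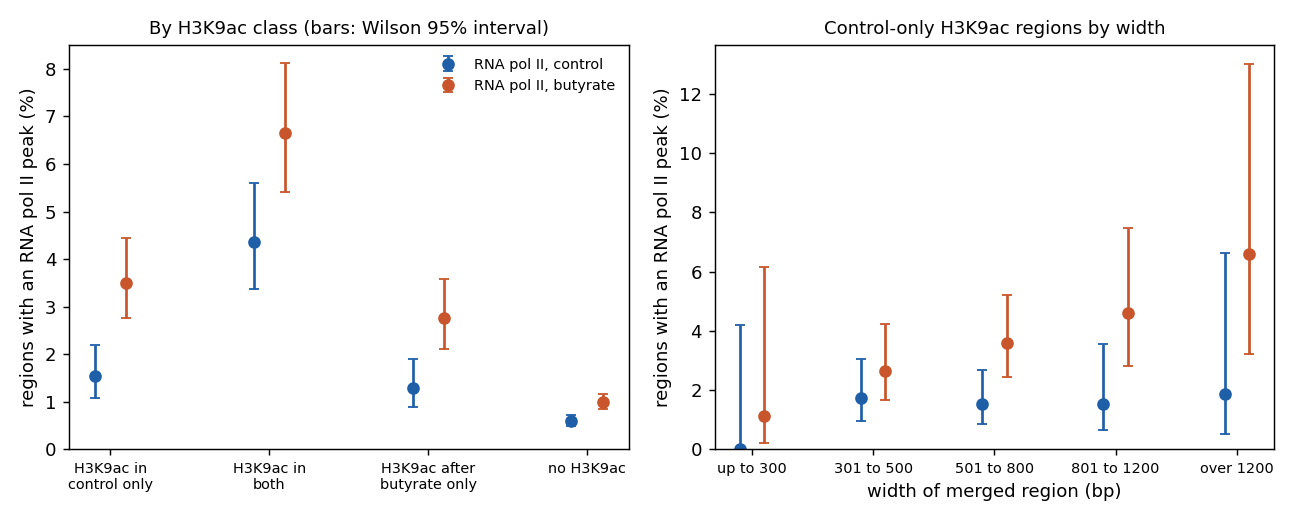
Share of regions with an RNA pol II peak (vertical axes, %) in control and after butyrate, for the H3K9ac classes of steady regions (left) and for the control-only regions by width of the merged region (right). Points are shares and bars Wilson 95% intervals, and the control-only regions stand at 1.54% in control and 3.51% after butyrate.

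The RNA pol II calls were mostly of a single condition, as they were over all merged regions. There, 615 of the 691 regions with RNA pol II had it in a single condition. Of 88 control-only H3K9ac regions with RNA pol II, 7 had it in both conditions, 22 in control only and 59 after butyrate only. Of the 81 with RNA pol II in a single condition, the butyrate-only part was 72.8% (62.3 to 81.3), against 66.3% (62.5 to 70.0) over all merged regions. The regions with RNA pol II after butyrate only had a median width of 721 bp, against 617 bp for those with it in control only and 570 bp for all 1883. They lay on 22 chromosomes.

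The share with RNA pol II after butyrate was higher in wider regions. It was 1.14% (0.201 to 6.16) of 88 regions up to 300 bp, 2.66% (1.67 to 4.22) of 639 regions of over 300 and up to 500 bp, 3.59% (2.46 to 5.20) of 725 regions of over 500 and up to 800 bp, 4.62% (2.82 to 7.47) of 325 regions of over 800 and up to 1200 bp and 6.60% (3.24 to 13.0) of 106 wider ones. In control it showed no such order, with 1.72%, 1.52%, 1.54% and 1.89% in the 4 wider classes. In the narrowest class 0 of 88 regions had a control peak, which allows a share of up to 3.41% by a limit of 3 counts (the Wilson upper bound is 4.18%). Neighbouring classes had overlapping intervals, and a wider region offers more sequence for an overlap. Against steady regions without H3K9ac of the same width, the control-only regions had the higher butyrate share in every class, with 0.348%, 0.926%, 1.26%, 2.08% and 1.37% in the regions without H3K9ac, the last from 3 of 219. The intervals did not overlap in the 2 classes between 300 and 800 bp and overlapped in the other 3. In control the share was lower than without H3K9ac in the narrowest class, 0 of 88 against 0.316%, and in the widest, 1.89% against 2.74%, and the intervals overlapped in 4 of the 5 classes. Against regions of like width with H3K9ac in both conditions, the control-only regions had the lower share in all 5 classes in each condition, with overlapping intervals in 4 classes after butyrate and 3 in control. Grouping instead by the width under control H3K9ac gave butyrate shares of 3.17% at 200 bp, 3.35% above that and up to 300 bp, 3.74% up to 500 bp and 6.67% above 500 bp, the last from 3 of 45.

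RNA pol II peaks were also set beside the H3K9ac peaks within the regions. Of the 66 butyrate RNA pol II peaks in the control-only regions, 58 (87.9%, 77.9 to 93.7) overlapped the control H3K9ac peak, as did 24 of 29 control RNA pol II peaks (82.8%, 65.5 to 92.4), at 1 bp or more. In the mirror regions 23 of 25 control and 43 of 55 butyrate RNA pol II peaks overlapped the butyrate H3K9ac peak. The RNA pol II peaks had a median of 252 bp in control and 222 bp after butyrate. Peaks of this width in regions this short touch the H3K9ac peak at most placements, so the overlap does not show where in a region RNA pol II lay. At the centres of the 1921 control H3K9ac peaks, butyrate RNA pol II coverage was 2.50%. At 200 bp to either side it was 0.364% and 0.885%. In control, RNA pol II coverage was 0.989% at the centre and 0.521% and 0.260% at 200 bp. Butyrate H3K27ac coverage was 94.1% at the centre and 53.5% and 56.9% at 200 bp. These differences were not tested. RNA pol II was found after butyrate in 33 of 960 regions with less H3K27ac width (3.44%, 2.46 to 4.79). With more width it was 33 of 891 (3.70%, 2.65 to 5.16). In control it was found in 12 (1.25%, 0.716 to 2.17) and 17 (1.91%, 1.19 to 3.03). The intervals overlapped, and so few regions cannot show whether RNA pol II went with a direction of H3K27ac. Without H3K9ac the butyrate shares were 0.752% (0.587 to 0.962) with less and 1.29% (1.06 to 1.57) with more. With H3K9ac in both conditions the order was the other way, at 7.34% and 5.98%.

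Most of the 7 regions with RNA pol II in both conditions also carried H3K9me3. The same share among all 76 merged regions with RNA pol II in both conditions is not given here. Whether the overlap is particular to control-only regions was therefore not tested. An H3K9me3 peak was present in 5 of the 7, and 4 of the 7 had H3K9me3 in both conditions, so that they held peaks of every list but butyrate H3K9ac. The widest lay on chromosome 9, 88636070 to 88636743, with 626 bp of control H3K9ac, 535 and 300 bp of H3K27ac, 529 and 255 bp of RNA pol II and 545 and 469 bp of H3K9me3 in control and after butyrate. On chromosome 18, 7793138 to 7793561, the control H3K9ac peak filled the 424 bp of the region, with 329 and 322 bp of H3K27ac, 399 and 424 bp of RNA pol II and 424 and 420 bp of H3K9me3. On chromosome 23, 12781078 to 12781498, H3K27ac went from 421 to 238 bp and RNA pol II from 263 to 421 bp under H3K9me3 of 394 and 357 bp. The fourth lay on chromosome 3, 17560749 to 17561058, where the control H3K9ac peak and both RNA pol II peaks had the same 310 bp. At these 4 places, peaks of all 4 antibodies lay within 310 to 674 bp. The fifth region with H3K9me3, on chromosome 14 from 20722054 to 20722417, had H3K9me3 in control only, over 326 bp, while RNA pol II covered all 364 bp in both conditions and H3K27ac 206 bp in control and 305 bp after butyrate.

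The other two regions with RNA pol II in both conditions had no H3K9me3 peak. On chromosome 5, 97100951 to 97101557, RNA pol II covered 242 bp in control and 222 bp after butyrate, within H3K27ac of 571 and 574 bp, and the control H3K9ac peak was 464 bp wide. On chromosome 4, 115641438 to 115641945, it covered 230 and 335 bp, within H3K27ac of 508 and 506 bp, and the control H3K9ac peak had 230 bp. In both, H3K27ac had almost the same width in the conditions.

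H3K9me3 was rare in the control-only regions. It was called in 7 regions in control (0.372%, 0.180 to 0.765) and 6 after butyrate (0.319%, 0.146 to 0.693), with 0.215% and 0.221% over all merged regions. In total 9 regions had it, 4 of them in both conditions, and 6 of the 9 also had RNA pol II. Over all merged regions 147 had H3K9me3, 58 of them in both conditions. How many of the 147 also had RNA pol II is not given here, so the overlap was not compared. Regions with H3K9ac in both conditions had H3K9me3 in 0.917% and 1.38%, mirror regions in 0.156% and 0.416%, and regions without H3K9ac in 0.0375% and 0.0562%. A new H3K9me3 peak after butyrate, without one in control, was found in 2 of the 1883 regions (0.106%), against 0.0979% of all merged regions. One was the widest of the 9, on chromosome 26, 24529442 to 24530258 (817 bp), with a butyrate H3K9me3 peak of 261 bp, where H3K27ac went from 622 to 817 bp. The next widest, on chromosome 7, 4714133 to 4714906, had H3K9me3 in control only, over 156 bp of the region. The intervals of the H3K9me3 shares in the control-only regions held the share of all merged regions in both conditions. Over steady regions the shares were lower, 0.1325% in control and 0.194% after butyrate. The control interval of the control-only regions lay above the steady share, and the butyrate interval held it.

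The surroundings of the regions gave H3K9ac calls that had not been used to choose them. Outside the 1883 regions and within 10 kb of one there were 324 control and 645 butyrate H3K9ac peaks, a ratio of 1.99. This excess of butyrate peaks is partly built in, because control peaks in neighbouring control-only regions are left out while those in neighbouring butyrate-only regions are counted. Leaving out both kinds of region, which was added once the values were known, gave 324 control and 342 butyrate peaks, a ratio of 1.06 with a butyrate share of 51.4% (47.6 to 55.1). Around the mirror regions the same count was 304 and 338, with a butyrate share of 52.6% (48.8 to 56.5). Both intervals held an equal split of nearby H3K9ac peaks between the conditions. This is partly built in too, because regions with H3K9ac in both conditions stay in the count. Over steady H3K27ac such regions hold 1401 control and 1417 butyrate H3K9ac peaks, so the even split says little about the surroundings. H3K27ac peaks within 10 kb outside the regions numbered 4409 in control and 4053 after butyrate, a ratio of 0.919, against 0.914 around the mirror regions. RNA pol II peaks there numbered 48 and 95, a ratio of 1.98.

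The control-only regions were mostly isolated from each other. Another control-only region lay within 10 kb of 236 of them (12.5%, 11.1 to 14.1), a butyrate-only region within 10 kb of 287 (15.2%) and a region with H3K9ac in both conditions within 10 kb of 229 (12.2%). A steady region without H3K9ac lay within 10 kb of 1137 (60.4%). The spacing was not particular to the control-only regions. Within 10 kb, 16.2% of butyrate-only regions and 13.5% of regions with H3K9ac in both conditions had another of their own kind. Of the steady regions without H3K9ac, 13.4% had a control-only region within 10 kb. The median distance of a control-only region was 136 kb to another one and 140 kb to a butyrate-only one. Grouping regions at most 10 kb apart left 1647 alone, 106 pairs and 8 groups of 3, and no larger group. The tightest group of 3, named after its values were seen, spanned 3789 bp on chromosome 19, 32692923 to 32696711, with no other steady region in between.

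The regions were found on all 29 chromosomes, from 9 on chromosome 27 to 141 on chromosome 5. Their density was lowest on chromosome 27 with 0.205 and highest on chromosome 19 with 2.08 per Mb, around a median of 0.713. As a share of the steady regions of a chromosome they ranged from 5.59% (2.97 to 10.3) on chromosome 27 to 11.8% (10.1 to 13.7) on chromosome 5. Control-only and butyrate-only regions were similar in number on most chromosomes. Chromosome 14 had 60 against 39, a control-only share of 60.6% (50.8 to 69.7), whereas chromosome 29 had 38 against 64 (37.3%, 28.5 to 46.9) and chromosome 7 had 99 against 132 (42.9%, 36.6 to 49.3). These were the 3 chromosomes of 29 whose interval did not hold the overall 49.5%.

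**Figure D5:**
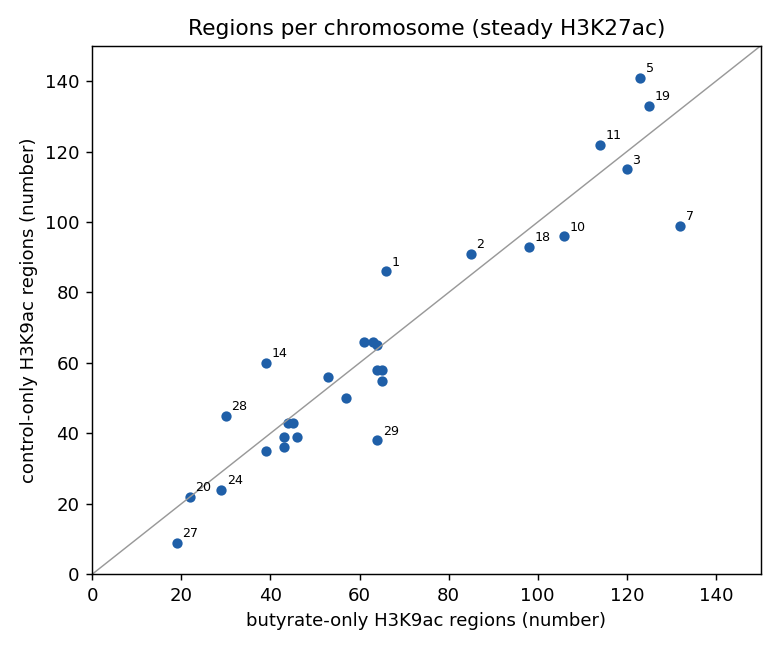
Number of control-only H3K9ac regions (vertical axis) against butyrate-only H3K9ac regions (horizontal axis) over steady H3K27ac on each of chromosomes 1 to 29 (points, some labelled by chromosome), with the line of equal numbers. Chromosome 5 has 141 and 123, chromosome 14 has 60 and 39 and chromosome 29 has 38 and 64.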

How the data were processed

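Peak lists of 8 ChIP-seq libraries of rumen tissue were analysed. The authors mapped reads of 75 nt with BWA at default settings to UMD3.1.1, kept unique alignments with fewer than 2 mismatches and called peaks with MACS2 against the input library, 1 list per library without pooling. Per the labels, Trim Galore 0.4.1 was also among the tools. The deposited lists hold the chromosome, start and end of each peak and no score or read number, so depth was not corrected for. Start and end were read as the first and last base of a peak, so that the narrowest peaks of every list are 200 bp wide.

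Overlapping acetylation peaks were merged with Python 3.11.15 and pandas 2.3.3, and intervals come from scipy 1.17.1. Merging and overlaps were tested on simulated peaks. Steady regions with H3K9ac in both conditions, after butyrate only and in neither were used for comparison. The members and all measures were chosen with earlier results of these data known. Named regions are the 5 with the widest control H3K9ac peak, the 5 widest, the 5 widest with RNA pol II in both conditions, the 3 widest with H3K9me3, the 3 largest gains and losses of H3K27ac width, and the 3 nearest to each side of the rule. The remaining regions with RNA pol II in both conditions were added after their values were seen.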

Additional observations from a re-analysis of the deposited data

Results flagged for a closer look

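Chromosome X was not part of the choice of regions. It held 9 regions with H3K27ac in both conditions and H3K9ac in control only, beside 21 with H3K9ac after butyrate only, 15 with H3K9ac in both and 222 without H3K9ac, of 795 merged regions. It was singled out because the comparisons left it out. On chromosomes 1 to 29 such regions made up 4.01% of 46982 merged regions, and the difference was not tested. Of the 9 regions, 2 had an RNA pol II peak in either condition, against 88 of the 1883 on chromosomes 1 to 29. With chromosome X added, control H3K9me3 was found in 10 of 1892 regions and butyrate H3K9me3 in 8. Without it the counts were 7 and 6 of 1883.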

How the results depend on the processing

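The 8 summary values were recomputed under 8 other settings and 2 added after the data had been seen, all 8 values under 6 of them and those a setting bears on under the rest, and 49 of 57 values stayed within the interval of the reported value (within 1.5 times for the number of regions). The share of steady regions with control H3K9ac that lack butyrate H3K9ac became 54.7% with peaks up to 500 bp apart merged, 62.9% with only peaks no narrower than the median of their list and 52.6% when a butyrate H3K9ac peak within 1 kb counted as present, the last by construction. With the limit on width, where fewer peaks entered, 943 regions were left, their share with control RNA pol II was 2.23% and the ratio of butyrate to control H3K9ac peaks within 10 kb outside them was 2.34. This ratio was 1.70 without regions that have a butyrate H3K9ac peak within 1 kb and 1.06 when butyrate-only regions were left out, both by construction. RNA pol II shares without the 9 regions that carry H3K9me3 were 1.28% in control and 3.20% after butyrate. Other causes were not tested. The lists hold no score, so a stricter enrichment threshold was not run. No paired analysis was possible because there was a single library per group.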
